A study of Caenorhabditis elegans with 6 samples.

Results

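The glutathione S-transferase family of Caenorhabditis elegans was followed in RNA from sorted cells of the male tail. The members were taken as every gene in the deposited count table whose WormBase symbol is gst- and a number, which gave 44 genes of 46932 in the table. Of these, 42 had at least 1 read, 25 had at least 10 counts in at least 3 libraries, and 24 passed the low-count filter of the test. The cells came from young adult males and were sorted by fluorescence for 2 kinds of rectal cell, valve cells and gland cells (named vir and rep in the labels), with 5000 cells in each library. The wild-type group (3 libraries) carried csr-1a with an inserted gfp::sl2::2xflag::aid tag. The mutant group (3 libraries) carried the same tagged locus with csr-1a deleted, and csr-1 encodes an Argonaute protein that binds small RNAs. Both groups were also mutant for him-8, which raises the share of males, and carried extrachromosomal arrays with the red protein wrmScarlet driven from pnc-1 and pcs-1 promoters. Heat stress had been given to the parents at late L4 in both groups, so no group without parental heat was compared. Whether the biological replicates were separate cultures is not stated in the labels, so the p-values measure the spread between these libraries.

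Glutathione S-transferases join the tripeptide glutathione to reactive or fat-soluble molecules, which can then be pumped out of the cell and excreted. This step is known as phase II of detoxification. It follows oxidation by enzymes such as the cytochromes P450 and comes before export by ATP-driven transporters. In C. elegans many gst genes are known targets of SKN-1, the transcription factor related to mammalian Nrf proteins that responds to oxidative stress, and gst-4 is the reporter gene most often used to read SKN-1 activity. The enzymes are found in many tissues of the worm, the intestine among them.

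The libraries held 17748698 to 47890863 counts, of which 74.4% to 78.4% were ribosomal RNA, and 4542195 to 11541671 counts were left for all other genes. Wild-type replicate 3 and mutant replicate 2 had the fewest genes with a count, 14012 and 12757, against 18071 to 19083 in the other libraries. Markers of the labelled cells and the reporter genes (10 listed, 7 tested) took 0.0131% to 0.0161% of counts other than ribosomal RNA in wild type and 0.0271% to 0.0382% in the mutant, and none of them was at 0 in all libraries. Most of that gain lay in the genes whose promoters drove the reporters, pnc-1 (7.17 ± 2.20 CPM in wild type, 22.9 ± 6.41 CPM in the mutant) and pcs-1 (13.3 ± 3.13 and 30.3 ± 10.5 CPM). Among the other listed genes, egl-38, pax-3, lin-48, ceh-6 and mab-9 all averaged below 1 CPM in both groups, mab-9 with 3 counts in all. The rest of the list, hmg-11, sem-4 and egl-26, was more abundant. Their wild-type means were 9.14, 3.16 and 2.43 CPM, and their mutant means were 10.6, 5.71 and 2.45 CPM. For each of them the groups overlapped. The 8 coelomocyte markers, genes of scavenger cells in the body cavity, took 1.64% to 1.68% in wild type and 0.757% to 1.15% in the mutant. The 19 body wall muscle markers took 0.417% to 0.477% in wild type and 4.30% to 9.21% in the mutant, with unc-60 at 0 in every library. In bulk samples such as these, fewer cells of a type and less RNA per cell cannot be told apart.

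The 44 genes are alike in size and crowded on the genome. In the WBcel235 annotation, 39 of them have a coding length between 600 and 660 bp, with a median of 627 bp, and 39 have a single annotated transcript. Chromosome II carries 25 members, chromosome V 9, chromosome IV 4, chromosome X 3, chromosome I 2 and chromosome III 1. When members within 10000 bp of each other were joined, 25 of the 44 fell into 4 clusters and 19 stood alone. The first cluster (chromosome II, 4879891 to 4893573) holds gst-6, gst-7, gst-8 and gst-9, all on the plus strand, with 3 other protein-coding genes inside it. The second (chromosome II, 13608154 to 13630887) is a row of 9 members on the minus strand from gst-20 to gst-18 with no other protein-coding gene inside it. The third (chromosome II, 15163817 to 15185389) holds another 9 on the minus strand, from gst-26 to gst-35, and 1 other protein-coding gene. The fourth (chromosome IV, 10139380 to 10143099) holds gst-3, gst-2 and gst-4 within 3.72 kb.

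The clusters differed widely in how much they were counted. The first held 50.5% of all reads assigned to the family, and all 4 of its members were tested. The second and the third, with 9 members each, held 3.13% and 4.98% of the family's reads, and in each only 3 members were tested and 1 had no read. The fourth held 2.37%, with 2 of its 3 members tested. The 19 genes that stand alone held 39.02%, and 12 of them were tested. How far reads were shared or lost between similar members was not measured, so levels in the tandem rows are uncertain.

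Most of the family's RNA came from gst-7, gst-1, gst-5 and gst-8, which together took 80.7% to 85.1% of the family's counts in wild type and 72.1% to 79.1% in the mutant. Levels between genes are compared as CPM per kb of exon, where CPM is the count in a library per 1000000 counts of its scaled total. On that scale the mean over all 6 libraries was 91.3 for gst-7, 34.1 for gst-1, 24.9 for gst-5, 13.5 for gst-8 and 7.77 for gst-39. Among 11427 tested protein-coding genes, gst-7 ranked 194 by this level, gst-1 475, gst-5 638, gst-8 1289 and gst-39 2327. The next member, gst-36, ranked 3653 at 4.87 CPM per kb, and every other member lay at or below 2.76 CPM per kb. In CPM, 5 members averaged 5 or more, 11 averaged between 1 and 5, and 28 averaged below 1. The neighbours gst-1 and gst-5 in this order had wild-type levels of 37.1 ± 5.01 and 34.9 ± 7.41 CPM per kb (SD, n = 3), which did not differ beyond their spread, whereas in the mutant they stood at 30.998 ± 1.34 and 14.9 ± 3.83 CPM per kb.

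**Figure D1:**
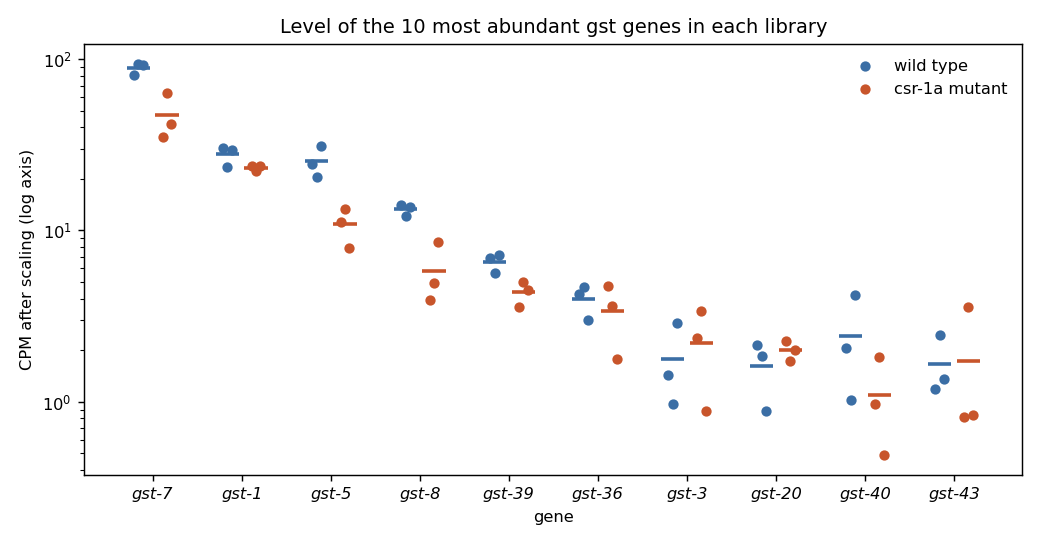
Level of the 10 most abundant gst genes (CPM after scaling, log axis), with a point for each of 3 wild-type and 3 csr-1a mutant libraries and a bar at the group mean. The wild-type points of gst-7, gst-5, gst-8 and gst-39 all lie above the mutant points, while those of gst-1 and of the 5 less abundant genes overlap.

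The csr-1a mutant was compared with wild type in bulk RNA of the sorted cells, whose muscle and coelomocyte marker shares also differed between the groups. A change within the cells of the male tail was not separated from a change in the mix of cells. At an adjusted p under 0.05, gst-5, gst-7 and gst-8 were called lower in the mutant, and no member was called higher. These are 3 of the 4 most abundant members of the family. Levels below are in CPM, listed per library in the order of replicates 1, 2 and 3, and means carry the SD (n = 3). Log2 fold changes compare mutant with wild type and carry the standard error. The quasi-likelihood test of edgeR was used, with p adjusted by Benjamini-Hochberg over all 11968 genes tested. Over all genes tested, 5.59% were called in either direction at an adjusted p under 0.05, and 1.55% were called lower. The 3 called members were 3 of 24 tested. The 24 passed a filter on level and so do not stand for all 44.

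The most abundant member, gst-7 (WBGene00001755, chromosome II, 4882062 to 4883358, plus strand), gave 80.5, 94.1 and 92.6 CPM across wild type, against 35.3, 63.4 and 42.0 CPM across the mutants. Every wild-type library lay above every mutant library, and mutant replicate 2 was the closest to wild type. The means were 89.1 ± 7.46 and 46.9 ± 14.7 CPM, a log2 fold change of -0.93 ± 0.21 with a 95% interval of -1.39 to -0.46 (adjusted p = 0.026). By level per kb of exon it ranked 144 of 11427 protein-coding genes in wild type and 279 in the mutant.

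The gene gst-5 (WBGene00001753, chromosome II, 10950352 to 10951603, plus strand) encodes one of the worm enzymes reported to conjugate 4-hydroxynonenal, a toxic product of lipid peroxidation. It gave 24.4, 20.4 and 31.04 CPM across wild type, against 11.2, 13.4 and 7.89 CPM across the mutants. The groups did not overlap, and mutant replicate 3 was the lowest. The means were 25.3 ± 5.37 and 10.8 ± 2.78 CPM, a log2 fold change of -1.22 ± 0.25 with a 95% interval of -1.77 to -0.67 (adjusted p = 0.0154). Its exons share 12 bp with nos-1 on the opposite strand, which stood at 0.902 to 1.95 CPM in all 6 libraries.

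The gene gst-8 (WBGene00001756, chromosome II, 4883712 to 4884599, plus strand), which lies next to gst-7 and is also reported to conjugate 4-hydroxynonenal, gave 14.2, 12.2 and 13.7 CPM across wild type, against 3.92, 4.90 and 8.55 CPM across the mutants. The wild-type libraries were close together and all above the mutant ones, among which replicate 3 was the highest. The means were 13.4 ± 1.03 and 5.79 ± 2.44 CPM, a log2 fold change of -1.21 ± 0.31 with a 95% interval of -1.91 to -0.52 (adjusted p = 0.0484).

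Leaving out 1 library, which left fewer in that group, could end each of the 3 calls. That of gst-7 ended when any 1 wild-type library or mutant replicate 3 was left out (adjusted p = 0.0586, 0.0654, 0.0928 and 0.105), that of gst-5 without replicate 1 or 3 of wild type or replicate 3 of the mutant (adjusted p = 0.0544, 0.07 and 0.0549), and that of gst-8 when any 1 library other than mutant replicate 3 was left out (adjusted p = 0.0922 to 0.203). With scaling by library totals alone only gst-5 was called (adjusted p = 0.0323, against 0.0882 for gst-7 and 0.0613 for gst-8), and when the libraries of fewest genes were both dropped only gst-7 was (adjusted p = 0.0178, against 0.0523 for gst-5 and 0.189 for gst-8). Over the 18 alternatives run, the log2 fold change lay between -1.15 and -0.75 for gst-7, between -1.36 and -0.998 for gst-5 and between -1.56 and -0.98 for gst-8.

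The other abundant member, gst-1 (WBGene00001749, chromosome III, 9059331 to 9060181, plus strand), a homologue of the pi class of mammalian enzymes, did not pass. It gave 30.4, 23.5 and 29.5 CPM across wild type, against 23.9, 22.1 and 23.7 CPM across the mutants, so that wild-type replicate 2 lay within the range of the mutant. Its log2 fold change was -0.26 ± 0.18 with a 95% interval of -0.65 to 0.13 (adjusted p = 0.55). The interval leaves out a fall as large as the estimate for gst-7, gst-5 or gst-8. It still overlaps the intervals of gst-7 (-1.39 to -0.46) and gst-8 (-1.91 to -0.52), though not that of gst-5 (-1.77 to -0.67). A difference between gst-1 and these genes was not tested.

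Counts of the falling genes were also set against gst-1 within each library, a ratio that no scaling can alter, chosen after the values were seen. The ratio of gst-5 to gst-1 counts was 0.801, 0.868 and 1.05 across wild type, against 0.468, 0.608 and 0.333 across the mutants. That of gst-8 to gst-1 was 0.465, 0.518 and 0.466 in wild type and 0.164, 0.222 and 0.361 in the mutant. For both genes the groups did not overlap. Both had been picked because they were called lower in the same libraries, so these ratios are not a separate test. The ratio of gst-7 to gst-1 was 2.64, 4.0 and 3.14 in wild type and 1.48, 2.87 and 1.77 in the mutant, and here mutant replicate 2 lay above wild-type replicate 1. That of gst-39, which was not called, was 0.227, 0.239 and 0.242 in wild type and 0.149, 0.228 and 0.189 in the mutant. Its groups overlapped in the same 2 libraries.

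Together the 44 members took 0.0721%, 0.0789% and 0.0732% of counts other than ribosomal RNA across wild type, against 0.0426%, 0.0642% and 0.0477% across the mutants. The groups did not overlap, with means of 0.0747% ± 0.00365 and 0.0515% ± 0.0113 (SD, n = 3). The 4 most abundant members took 0.0617% ± 0.00227 in wild type and 0.0383% ± 0.0079 in the mutant. The other 40 members took 0.0130% ± 0.00217 and 0.0132% ± 0.00407, and their values overlapped between the groups. By library they took 0.0129%, 0.0153% and 0.0109% across wild type, against 0.0119%, 0.0178% and 0.00998% across the mutants. Of the mutant libraries only replicate 2 lay above the wild-type mean. These shares are given as a description and were not tested. In the same libraries the muscle markers took 0.477%, 0.417% and 0.425% in wild type and 9.21%, 4.30% and 4.68% in the mutant, and the coelomocyte markers 1.64%, 1.66% and 1.68% and 0.757%, 1.15% and 1.14%. Mutant replicate 1 was thus lowest for the family and for the coelomocyte markers and highest for the muscle markers. Among the mutants replicate 2 was highest for the family and the coelomocyte markers and lowest for the muscle markers, with replicate 3 in between. The coelomocyte shares of mutant replicates 2 and 3 were alike, at 1.15% and 1.14%, while their family shares were 0.0642% and 0.0477%. With the muscle marker genes left out before scaling, gst-7 and gst-5 were called (adjusted p = 0.027 and 0.0194) and gst-8 was not (adjusted p = 0.0548). The part of the coelomocyte markers in the falls of gst-5, gst-7 and gst-8 was not tested.

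**Figure D2:**
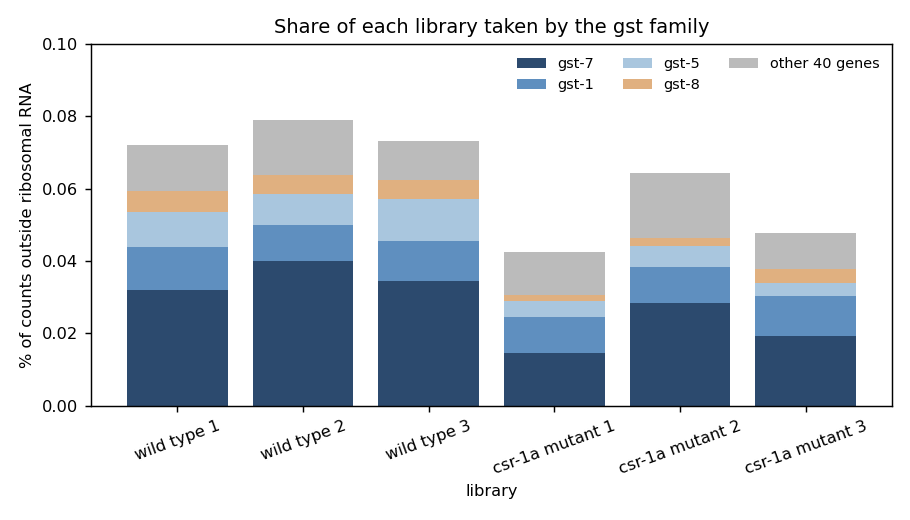
Percent of the counts outside ribosomal RNA taken by the gst family in each library, split into gst-7, gst-1, gst-5, gst-8 and the other 40 genes. The wild-type libraries reach 0.0721% to 0.0789% and the mutant ones 0.0426% to 0.0642%, and the segments of gst-7, gst-5 and gst-8 are shorter in the mutant.

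Of the 24 tested members, 10 had a positive and 14 a negative log2 fold change. Their median was -0.25, against 0.01 over all genes tested. In 5 of the 24 (gst-5, gst-7, gst-8, gst-39 and gst-38) every wild-type library lay above every mutant library, and in 0 of the 24 the reverse held. Over all genes tested, the groups did not overlap in 24.8%, with wild type higher in 12.2% and the mutant higher in 12.6%. Only the 3 called members had an unadjusted p under 0.05, which 16.9% of all genes tested had.

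Among members that were not called, gst-39, gst-40 and gst-1 had the smallest p. The gene gst-39 (WBGene00001787, chromosome II, 15171163 to 15171916, minus strand) gave 6.91, 5.61 and 7.14 CPM across wild type, against 3.57, 5.02 and 4.47 CPM across the mutants, groups that did not overlap. Its log2 fold change was -0.59 ± 0.31 with a 95% interval of -1.27 to 0.08 (adjusted p = 0.386). The gene gst-40 (WBGene00001788, chromosome IV, 760502 to 762419, plus strand) gave 2.06, 1.02 and 4.19 CPM across wild type, against 0.965, 1.82 and 0.487 CPM across the mutants. Its groups overlapped, with wild-type replicate 2 below mutant replicate 2, and its log2 fold change was -1.14 ± 0.70 (adjusted p = 0.491).

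Another 4 of the 10 most abundant members showed no separation of the groups. The gene gst-36 (WBGene00001784) gave 4.28, 4.69 and 3.01 CPM across wild type, against 4.76, 3.60 and 1.77 CPM across the mutants. Both its highest and its lowest library were mutant (log2 fold change -0.23 ± 0.43, adjusted p = 0.875), and 93 bp of its exons overlap scav-5 on the other strand. The gene gst-3 (WBGene00001751) gave 1.44, 0.970 and 2.89 CPM across wild type, against 2.35, 3.40 and 0.886 CPM across the mutants, and here too the mutant libraries held both extremes (0.33 ± 0.63, adjusted p = 0.881). The gene gst-20 (WBGene00001768) gave 2.14, 1.84 and 0.885 CPM across wild type, against 2.27, 1.74 and 1.99 CPM across the mutants. Only wild-type replicate 3 stood apart from the other 5 libraries (0.30 ± 0.54, adjusted p = 0.874). The gene gst-43 (WBGene00001791), of the zeta class known for an isomerase step in tyrosine breakdown, gave 1.19, 2.45 and 1.36 CPM across wild type, against 0.818, 3.56 and 0.842 CPM across the mutants. Replicate 2 was its highest library in both groups (0.06 ± 0.71, adjusted p = 0.986).

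**Figure D3:**
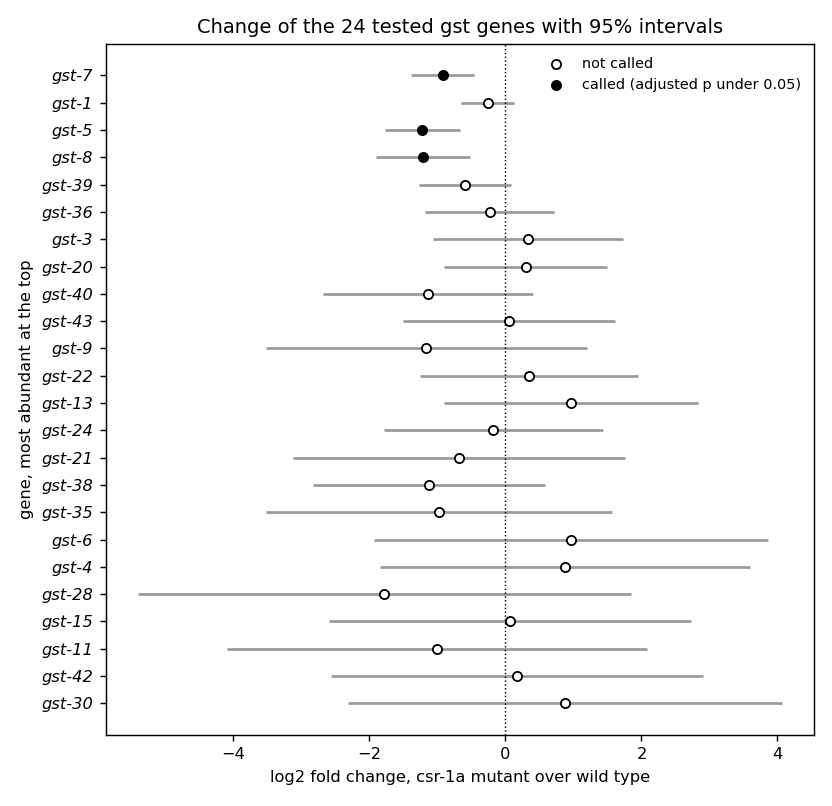
Log2 fold change of the 24 tested gst genes, csr-1a mutant over wild type, with 95% intervals from the quasi-likelihood test, ordered by mean CPM. The filled points are gst-7, gst-5 and gst-8, and the intervals of the other 21 genes cross 0 and widen toward the least abundant genes.

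The remaining 14 tested members were all below 2 CPM on average and their intervals were wide. The well-known SKN-1 reporter gene gst-4 gave 0.782, 0.663 and 0 CPM across wild type, against 1.45, 0.435 and 0.797 CPM across the mutants. Its groups overlapped, and its log2 fold change of 0.88 ± 1.24 had a 95% interval of -1.85 to 3.60 (adjusted p = 0.824). Neither a rise nor a fall of 2-fold was therefore excluded for it in these libraries. In addition 65 bp of its exons overlap dhs-12 on the same strand, which stood at 3.06 to 6.87 CPM. Positive values were also estimated for gst-13 (0.97 ± 0.85), gst-6 (0.96 ± 1.32), gst-30 (0.88 ± 1.45), gst-22 (0.35 ± 0.73), the zeta-class gene gst-42 (0.17 ± 1.24) and gst-15 (0.07 ± 1.21). Negative values were estimated for gst-28 (-1.78 ± 1.64), gst-9 (-1.16 ± 1.07), gst-38 (-1.13 ± 0.78), gst-11 (-1.01 ± 1.40), gst-35 (-0.98 ± 1.15), gst-21 (-0.68 ± 1.11) and gst-24 (-0.18 ± 0.73). None of these 14 passed (adjusted p = 0.562 to 0.99). The median standard error was 0.25 among the 5 tested members averaging 5 CPM or more and 1.07 among the 19 below.

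Within the first cluster on chromosome II, 3 of the 4 estimates were negative. The adjacent genes gst-7 and gst-8 had log2 fold changes of -0.93 and -1.21, while gst-6, upstream of gst-7, was at 0.96 ± 1.32 and gst-9, the last of the row, at -1.16 ± 1.07. The gene gst-9 gave 1.81, 1.02 and 2.48 CPM across wild type, against 1.03, 0 and 1.33 CPM across the mutants. Intervals of -1.93 to 3.86 for gst-6 and -3.52 to 1.20 for gst-9 hold the values of gst-7 and gst-8. A difference from them was therefore not detectable in these libraries. In the third cluster the 3 tested members, gst-39, gst-35 and gst-28, all had negative values and none was called, and the value of gst-35 turned to 1.51 without wild-type replicate 2, which held 58.7% of its summed CPM.

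Many members were counted in some libraries and missing from others. In 15 members a library with 10 or more counts stood beside a library with 0, among them 6 tested and 9 untested members. In 14 of these 15, wild-type replicate 3 or mutant replicate 2, the libraries with the fewest genes, was among the empty ones, and gst-14, gst-25, gst-28, gst-32 and gst-37 were at 0 in other libraries as well. Both libraries had a read for 28 members, against 36 to 38 members in the other 4. In mutant replicate 2 no member had between 1 and 9 counts, so that each of its 28 detected members had at least 10, whereas 10 to 15 members had 1 to 9 counts in the other libraries. Over all genes, 9.09% of the genes detected in mutant replicate 2 had 1 to 9 counts, against 17.8% to 37.4% in the other 5 libraries.

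A single library could therefore set the level of a rarely counted member. The gene gst-2 had 10, 3 and 0 counts across wild type, against 5, 59 and 1 across the mutants, so that mutant replicate 2 held 76.6% of its summed CPM. The gene gst-25 had 4, 0 and 0 counts in wild type and 1, 22 and 1 in the mutant, and gst-33 had 5, 0 and 2 and then 2, 30 and 6. In each of these genes the high library was the same, mutant replicate 2. Other genes were high elsewhere. The gene gst-14 had 8, 4 and 0 counts in wild type and 47, 0 and 0 in the mutant, and gst-35 had 2, 64 and 6 in wild type and 31, 15 and 14 in the mutant. Of the members with 10 or more counts in all, 8 had more than 50% of their summed CPM in 1 library, 4 of them in mutant replicate 2, and of the 8 only gst-35 was tested.

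**Figure D4:**
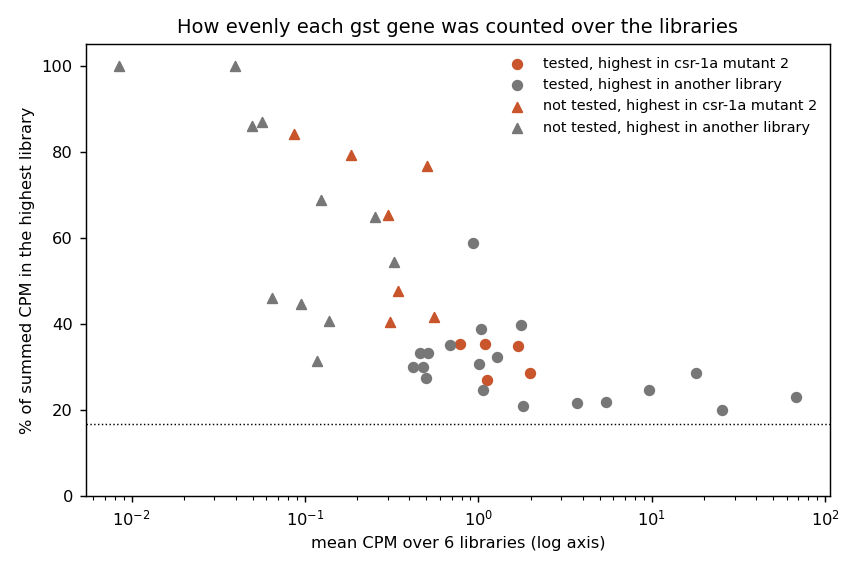
Percent of each gene's summed CPM that lies in its highest library, against its mean CPM over 6 libraries (log axis), for the 42 gst genes with a read. The dotted line marks equal levels in all libraries, circles are tested and triangles untested genes, and red marks genes highest in mutant replicate 2. The 5 members above 5 CPM lie between 19.9% and 28.7%, and rarely counted members reach 100%.

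The 18 members with reads that were not tested had 1 to 86 counts in all. The gene gst-44 met the criterion of 10 counts in 3 libraries but not the filter of the test, with 7, 11 and 7 counts in wild type and 20, 35 and 6 in the mutant. The other 17 were gst-2, gst-10, gst-12, gst-14, gst-16, gst-17, gst-19, gst-23, gst-25, gst-26, gst-29, gst-31, gst-32, gst-33, gst-34, gst-37 and gst-41. Among them gst-10, known in the worm for conjugating 4-hydroxynonenal, had 5, 3 and 0 counts in wild type and 6, 19 and 14 in the mutant. In 10 of the 18 the mean CPM was higher in the mutant and in 8 it was higher in wild type. The genes gst-18 and gst-27 had 0 counts in every library, which allows a share of up to 8.02e-06% of the 37417445 counts outside ribosomal RNA (3 counts, counting error only). The exons of gst-18 share 351 bp with gst-17, which had 4 counts, all in wild-type replicate 3.

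Beside the gst genes, the worm has glutathione transferases of other classes under other names. Of the omega-class genes gsto-1, gsto-2 and gsto-3 and the kappa-class genes gstk-1 and gstk-2, 3 of 5 were tested and 0 were called (2 with positive values, median log2 fold change 0.75). The kappa-class gene gstk-2 was counted at 2.90 CPM on average in wild type and at 4.86 CPM in the mutant without overlap of the groups (0.75 ± 0.41, adjusted p = 0.415).

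Among 18 genes that make or use glutathione, 17 were tested, 1 was higher and 0 were lower in the mutant (median -0.10). The gene that rose was pcs-1, a phytochelatin synthase, whose promoter also drove the sort's reporter (1.19 ± 0.27, adjusted p = 0.0258). No gene of this list was called when replicate 1 or 2 of wild type or replicate 1 of the mutant was left out. The enzymes that make glutathione, gcs-1 and gss-1, had values of -0.35 ± 0.18 and -0.37 ± 0.27 (adjusted p = 0.379 and 0.599), and the reductase that recycles it, gsr-1, of -0.51 ± 0.17 (adjusted p = 0.123). None of these 3 passed the test.

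Of 12 genes of the SKN-1 pathway, 11 were tested and 0 were called, with a median of -0.11. The gene skn-1 itself had a mean of 84.4 CPM in wild type and of 55.1 CPM in the mutant without overlap of the groups, and it did not pass (-0.61 ± 0.20, adjusted p = 0.108). Of 18 antioxidant genes, 16 were tested and 0 were called, with a median of 0.17. The thioredoxin reductase gene trxr-1 had the smallest adjusted p among them (-0.66 ± 0.19, adjusted p = 0.0686).

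In the steps before and after conjugation, 2 of 33 tested cytochrome P450 genes were lower and 0 higher (median -0.40), and 25 of the 33 had negative values. The share called was 6.06%. Over all genes tested, 5.59% were called in either direction, 1.55% were called lower and 50.5% had positive values. The called genes were cyp-25A3, at 12.7 ± 1.06 CPM in wild type and at 5.76 ± 1.55 CPM in the mutant libraries (log2 fold change -1.15 ± 0.28, adjusted p = 0.0363), and cyp-33C8, at 37.1 ± 6.98 and 18.5 ± 5.60 CPM (-1.0 ± 0.24, adjusted p = 0.0374). Neither was called without replicate 1 or 3 of wild type or replicate 3 of the mutant, when 0 P450 genes were, and 1 P450 gene was called when any other single library was left out. With scaling by library totals alone 0 P450 genes were called, and 1 was with the replicate block, with ribosomal RNA or muscle genes left out, or without both libraries of fewest genes. None of 30 tested ugt genes, which attach sugars in place of glutathione, and none of 21 tested dhs genes of short-chain dehydrogenases was called (medians 0.07 and 0.19).

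Of 19 tested mrp and pgp transporter genes, whose families include exporters of glutathione conjugates, 3 were lower and 1 was higher (median -0.15). The share called was 21.1%, against 5.59% over all genes tested. The lower genes were pgp-9, mrp-3 and mrp-5, the last known as an exporter of heme in the worm. Their log2 fold changes were -1.73 ± 0.23 for pgp-9 (adjusted p = 0.00111), -0.93 ± 0.23 for mrp-3 (adjusted p = 0.0383) and -0.73 ± 0.17 for mrp-5 (adjusted p = 0.0308). The higher gene was pgp-4 (1.68 ± 0.39, adjusted p = 0.03). Without replicate 1 or 3 of wild type only 1 gene of this list was called, and without replicate 2 of wild type or replicate 3 of the mutant the count was 2. It was also 2 with library totals alone, and 1 without both libraries of fewest genes. Of the 8 coelomocyte markers, 6 were lower in the same comparison, with log2 fold changes from -0.94 ± 0.17 (cubn-1) to -0.64 ± 0.13 (rme-8), and all 18 tested muscle markers were higher. The 11 tested intestinal markers gave 0 calls, with a median log2 fold change of -0.06 and shares of 0.0443% to 0.0541% in wild type and 0.0360% to 0.0567% in the mutant. Among them ifb-2 (-0.95 ± 0.29, adjusted p = 0.1) and fat-6 (-0.74 ± 0.26, adjusted p = 0.148) were lower without overlap of the groups. The groups of the other tested intestinal markers overlapped. Of 11 tested neuronal markers, 8 had negative values (median -0.52) and 1 was called lower, rgef-1 (-0.99 ± 0.16, adjusted p = 0.00346). Wild type also lay above the mutant without overlap for snt-1, egl-3, unc-119 and egl-21, which were not called (adjusted p = 0.0892 to 0.27). The groups of the other tested neuronal markers overlapped. The shares of the neuronal list overlapped, at 0.205% to 0.274% in wild type and 0.161% to 0.216% in the mutant. All 6 tested pharyngeal markers had positive values (median 1.55) and 0 were called, with shares of 0.0105% to 0.0210% and 0.0208% to 0.0672%. Of 9 tested hypodermal markers 1 was higher, the cuticle collagen gene rol-6 (1.91 ± 0.28, adjusted p = 0.00206), and the list's share was 0.0127% to 0.0157% in wild type and 0.0298% to 0.0413% in the mutant. Of the excretory markers 1 of 6 tested was higher, exc-5 (1.42 ± 0.28, adjusted p = 0.0117), and 0 of 9 germline and sperm markers and 0 of 4 glial markers were called. The part of these markers in the results for the gst genes was not tested.

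**Figure D5:**
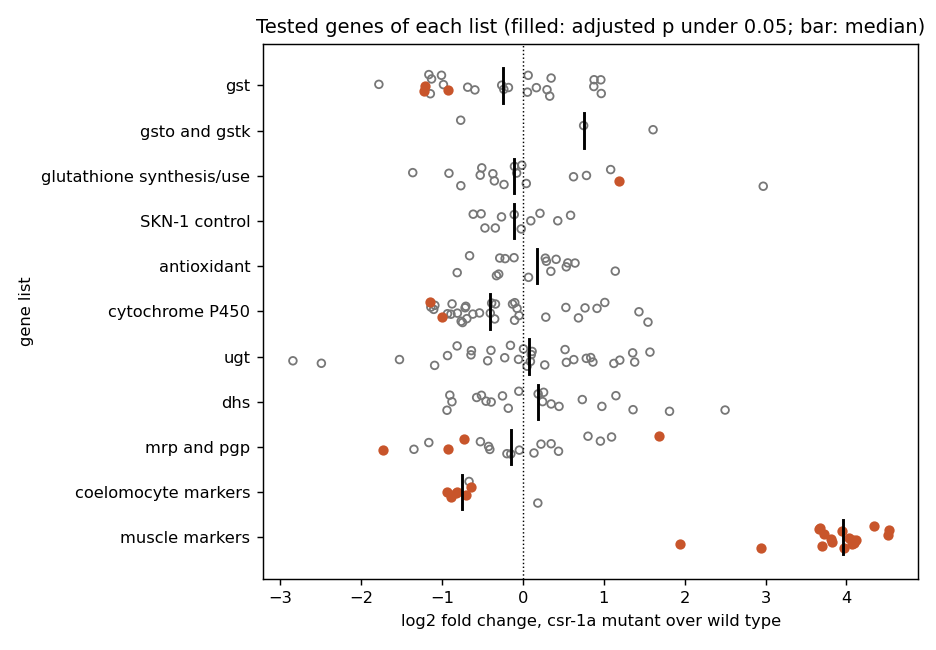
Log2 fold change (csr-1a mutant over wild type) of every tested gene in the gst family, in the lists of related genes and in the coelomocyte and muscle markers. Filled points passed an adjusted p under 0.05 and bars mark medians, which lie at -0.25 for gst, -0.40 for cytochrome P450, -0.76 for the coelomocyte markers and 3.96 for the muscle markers.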

How the data were processed

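RNA-seq libraries of 3 wild-type and 3 csr-1a mutant samples were grouped by the genotype in the sample labels. The authors deposited 1 table of raw read counts per gene. The submitters' processing notes name STAR, fastp 0.20.1, DESeq2, Subread 2.0.0 and featureCounts, without a stated order or role. Not given in the sources used here are the genome build, annotation and strand setting, so reads of overlapping genes cannot be told apart. Symbols and coordinates came from the WBcel235 annotation (Ensembl release 115), which matched 46919 of 46932 identifiers. They describe the gene, not the counted intervals.

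The test on the deposited counts was that of edgeR 4.0.16, run in R 4.3.3 (filterByExpr, minimum count 10 and minimum total 15, which comes to 0.442 CPM in 3 libraries, here on library totals before scaling; trimmed mean of M values; glmQLFit with robust=TRUE; adjusted p threshold 0.05). Standard errors are the log2 fold change over the square root of F, and intervals use the test's total degrees of freedom. The biological coefficient of variation was 0.465. Ribosomal RNA was kept in library totals. On simulated counts of 11276 tested genes, the test called 25 of 100 genes with a 2-fold change, 70 of 100 with a 4-fold change and 3 of 11076 unchanged genes. The changed genes had a mean of at least 2 CPM, so these shares do not cover rarer members. No pair of libraries in a group agreed within sampling noise (chi-square per degree of freedom at least 6.73). The members and lists were chosen with earlier results of these data known. Every tested member is named, with values per library for called members, the 10 most abundant and the 3 smallest p among the rest. From each list up to 5 called genes are named. Values for gst-4, gst-9, gst-2, gst-10, gst-14, gst-25, gst-33, gst-35 and gst-44 and for list genes that were not called were chosen after they were seen. Alternatives covered scaling, filters, limma-voom 3.58.1, DESeq2 1.42.0, a replicate block, ribosomal RNA and muscle genes left out, and libraries left out.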

Additional observations from a re-analysis of the deposited data

How the results depend on the processing

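The report gives 3 called gst genes, and 0 were higher in any of the 18 alternatives. The count was 3 with the replicate block, relative log expression factors, no filter, both other filters, DESeq2, limma-voom and robust=FALSE, 2 with ribosomal RNA or muscle genes left out, 1 with library totals alone, 1 without both libraries of fewest genes and 0 to 2 without single libraries. Over all genes, 669 were called, against 1048 without a low-count filter, 1062 with DESeq2, 557 with the replicate block and 416 to 697 without single libraries. Scaling by totals gave 573 genes higher and 89 lower, against 484 and 185. Of 407 values of single members, 18 lost the call, all of gst-5, gst-7 or gst-8, and 20 changed sign, all of members that were not called under either setting. The log2 fold change of gst-43 (0.06) was -0.22 with the replicate block, -0.35 with limma-voom and -1.09 without both libraries of fewest genes, where gst-42 was at -0.14 and gst-6 at -0.00188. That of gst-35 (-0.98) was 0.36 with the block and 0.54 with limma-voom. Without single libraries the values ran from -0.95 to 0.43 for gst-43, -1.49 to 1.51 for gst-35, -0.35 to 1.28 for gst-42, -0.40 to 0.65 for gst-15, -2.86 to 0.16 for gst-21, -0.37 to 0.13 for gst-24, -0.00281 to 0.60 for gst-20, -0.0219 to 0.86 for gst-3 and -0.57 to 0.11 for gst-36. The cause of these changes was not tested. The ratio of the family's mean share in mutant over wild type was 0.689 and lay between 0.598 and 0.749 under its alternatives. Deviations of same-numbered libraries correlated at 0.04, -0.02 and -0.07, and 0 of the 3 wild-type libraries matched its own number best, so the numbers were not taken as pairs. The 19 tested members below 5 CPM had standard errors with a median of 1.07. The parts of depth and of spread between libraries in these errors were not tested.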
